A study of Rattus norvegicus with 79 samples.

Results

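The AMPA receptor subunit genes Gria1, Gria2, Gria3 and Gria4 were followed through CA1 of the rat hippocampus, where young and aged rats had been trained in a water maze. Members were all probe sets (short oligonucleotide groups on an array that report 1 transcript) whose single gene symbol was one of these 4. They came to 10 probe sets among the 8740 that were not controls, and to 4 of 4736 named genes. Gria1 was measured by M36418_s_at, X17184_at and S56679_s_at, Gria2 by M38061_at and M36419_s_at, Gria3 by X54656_at and M36420_s_at, and Gria4 by M36421_s_at, S94371_at and S94371_g_at. By the manufacturer's naming, the ending _s_at marks probes that may match more than 1 transcript, and the S94371 pair of Gria4 comes from the same sequence record.

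AMPA receptors are the glutamate-gated cation channels that carry most fast excitatory transmission in the brain. Each channel is an assembly of subunits named GluA1 to GluA4, encoded by Gria1 to Gria4. In CA1 pyramidal neurons, changes in the number and makeup of AMPA receptors at synapses underlie long-term potentiation, a lasting strengthening of transmission that is studied as a cellular model of learning. GluA1 carries phosphorylation sites used in that process, an edited GluA2 makes the channel nearly impermeable to calcium, GluA3 pairs with GluA2, and GluA4 is found mainly in interneurons and in early development.

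All rats were male and of the strain that the labels spell Fisher-344, with 1 array per rat. The aged rats were 24 months old and fell into hidden platform impaired (n = 10), hidden platform unimpaired (n = 13), hidden platform with the letter B (n = 16), visible platform (n = 8), yoked (n = 8) and cage (n = 5) groups. The young rats were 3 months old and fell into hidden platform (n = 6), visible platform (n = 4), yoked (n = 6) and cage (n = 3) groups. Hidden platform rats had to learn where a submerged platform lay, visible platform rats could see it, yoked rats swam without a platform, and cage rats stayed in their home cages. Impaired and unimpaired refer to learning, and for the 16 aged arrays with B in that place the labels do not say what it stands for. All samples were punches of the CA1 cell layer from rats killed 24 hours after the last trial, so each array holds the RNA of every cell type in the punch.

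The unit is the MAS5 signal, a linear brightness per probe set that the authors had scaled to a common level on each array. RNA quality differed between arrays: 14 of the 79 had a median Spearman correlation with the other arrays under 0.85, the lowest being 0.223. These 14 were 2 aged impaired, 1 aged unimpaired, 4 aged visible, 1 aged yoked and 1 aged cage array, and 1 young hidden, 2 young visible and 2 young cage arrays. The log2 ratio of 3′ to 5′ signal of the actin and Gapdh control probe sets, a usual measure of how far the labelled RNA reaches towards the 5′ end, ran from -0.56 to 4.96 in aged rats without B and from 0.00 to 4.18 in young rats. The summed signal of 6 CA1 and pyramidal neuron markers ran from 3620.5 to 81703.4 with a median of 44129 in aged rats, against 15177 to 49723.6 with a median of 40030.3 in young rats, and no marker was at 0.

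Of the members, 7 probe sets of Gria1, Gria2 and Gria3 passed a filter on mean signal over all arrays, which dropped the dimmest 40% of probe sets (under 116.9). All 3 Gria4 probe sets stayed below it, with mean signals of 80.8 for M36421_s_at, 68.8 for S94371_at and 50.8 for S94371_g_at. By mean signal over all arrays the Gria1 probe set M36418_s_at lay at the 97.2% rank of probe sets. It ranged from 31.5 to 13030.1 over the 79 arrays, a 414-fold range. X17184_at of Gria1 ranged from 92.8 to 23483.3, whereas S56679_s_at of the same gene ranged from 107.2 to 1463.3. On the log2(signal + 15) scale used for all tests, the spread within groups was 1.40 for M36418_s_at and 1.51 for X17184_at, against a median of 0.68 over all tested probe sets. The other 5 tested members had within-group spreads of 0.69 to 0.90.

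Gria1 was higher in aged than in young rats by all 3 of its probe sets. M36418_s_at ranged from 106.2 to 13030.1 with a median of 6974.5 in the 44 aged rats without B, against 31.5 to 9440.4 with a median of 972.8 in the 19 young rats. The ranges overlapped, but 15 of 19 young arrays lay below the aged 25th percentile of 4343.85, and 37 of 44 aged arrays exceeded the young mean of their own treatment. X17184_at had a lowest, median and highest signal of 172.5, 2446.05 and 23483.3 in aged rats, against 92.8, 535.6 and 15654.9 in young rats. S56679_s_at had a lowest, median and highest signal of 227.1, 707.65 and 1463.3 in aged rats, against 107.2, 274.2 and 1149.6 in young rats, and 41 of 44 aged arrays exceeded the young mean of their treatment.

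**Figure D1:**
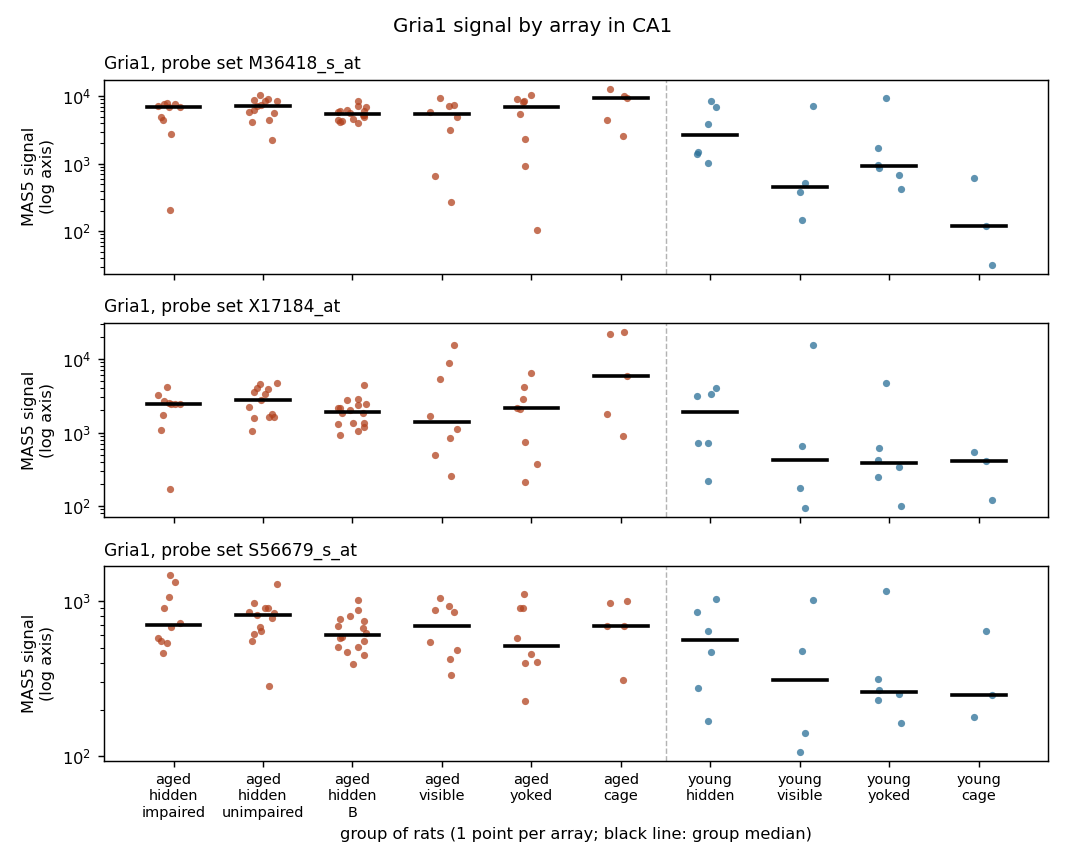
MAS5 signal (log axis) of the 3 Gria1 probe sets in every array, with aged groups left and young groups right of the dashed line, 1 point per array and the group median as a black line. M36418_s_at has group medians of 5395.15 to 9553.5 in aged groups and 121.7 to 2700.2 in young groups, with single arrays far below their group.

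In a limma fit of age with treatment as an additive factor (63 arrays, Benjamini-Hochberg adjustment over 5244 probe sets, adjusted p under 0.05 as the threshold), 5 of the 7 tested members rose with age and none fell. Over all tested probe sets, 5.13% passed, 3.2% higher and 1.93% lower in aged rats. M36418_s_at was 3.85-fold higher in aged rats, a log2 difference of 1.94 ± 0.44 (SE, adjusted p = 0.00441). X17184_at differed by 1.63 ± 0.45 on the log2 scale (adjusted p = 0.0184), and S56679_s_at by 0.83 ± 0.20 (adjusted p = 0.00768). Under quantile normalization and median centring M36418_s_at and S56679_s_at were the 2 members that passed, with X17184_at at adjusted p = 0.0769 and 0.0605. With the range of the animal number as a block M36418_s_at and M36419_s_at were the 2 that passed, with S56679_s_at at 0.57 ± 0.19 (adjusted p = 0.0768) and X17184_at at 1.26 ± 0.44 (adjusted p = 0.091). The median log2 difference was 0.86 over the 7 members and -0.05 over all tested probe sets. In bulk tissue, a change in the number of cells that express Gria1 and a change in its RNA per cell cannot be told apart.

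By M36418_s_at and X17184_at, the aged minus young difference in Gria1 was largest in cage rats. M36418_s_at read 4407, 2624.2, 13030.1, 10254.4 and 9553.5 in the 5 aged cage rats, against 31.5, 622.1 and 121.7 in the 3 young cage rats. X17184_at read 1797.6, 900.5, 22023.8, 23483.3 and 5841 in aged cage rats, against 120.1, 535.6 and 406.3 in young cage rats. For both probe sets every aged cage array exceeded every young cage array, which held for 9.86% of all tested probe sets. S56679_s_at overlapped, with 691.7, 308.8, 968.8, 688.4 and 1000.1 in aged cage rats, against 248.4, 179.5 and 638 in young cage rats. Its log2 difference in cage rats was 1.11 ± 0.53 (SE, limma, adjusted p = 0.14), close to 1.05 ± 0.45 in visible platform rats. In yoked and hidden platform rats the difference of S56679_s_at was 0.79 ± 0.40 and 0.62 ± 0.34.

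Within cage rats, 3 of 7 members passed the threshold and rose, where 17% of all tested probe sets passed. M36418_s_at differed by 5.42 ± 1.07 on the log2 scale (adjusted p = 0.000488), and X17184_at by 4.12 ± 1.13 (adjusted p = 0.00826). Without the arrays of low correlation, which leaves 1 young cage array, M36418_s_at differed by 3.28 ± 0.98 (adjusted p = 0.0237) and X17184_at by 2.80 ± 1.33 (adjusted p = 0.19). The median log2 difference of all tested probe sets in this comparison was -0.27, and 0.01 after centring each array on its median, where the same 3 members passed. The probe sets past the threshold split into 516 higher and 373 lower in aged cage rats, into 388 and 131 after median centring and into 417 and 196 after quantile normalization. The 3 young cage arrays had log2 3′/5′ ratios of 0.05, 2.65 and 0.51, against 2.76 to 4.96 in aged cage rats, and 2 of the 3 were among the arrays of low correlation. With the ratio as a covariate the difference of M36418_s_at was 2.58 ± 0.75 (adjusted p = 0.0556) and none of the 7 members passed. Without young cage rat 70, whose ratio was 0.05, M36418_s_at was the 1 member that passed, at 4.53 ± 1.21 (adjusted p = 0.0172).

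Some marker sums differed between the same cage arrays. The 6 CA1 and pyramidal neuron markers summed to 25418.8 to 72922.4 in aged cage rats and to 15177 to 42028 in young cage rats, with overlap. Gene by gene, 3 of these markers were higher and 3 lower in aged cage rats. Their median log2 difference was -0.15, and none passed the threshold. The 6 oligodendrocyte markers summed to 6971.3 to 26704.6 in aged cage rats and to 4231.7 to 6781.5 in young cage rats, without overlap. The 3 endothelial markers summed to 638.8 to 1284.2 in aged cage rats against 1851.2 to 2614.5 in young cage rats, and the 3 markers of neighbouring dentate and CA3 cells to 1699 to 3010.3 against 3263.1 to 4085.8, both without overlap. The 8 interneuron markers summed to 8749.6 to 13119.7 in aged cage rats and to 7917.7 to 32320 in young cage rats. The 6 astrocyte markers summed to 12861.5 to 19547.6 in aged and to 2484 to 18367.8 in young cage rats. The 4 microglia markers summed to 594.4 to 1951.2 in aged and to 888.5 to 1496.4 in young cage rats. The ranges of these lists overlapped. No marker was at 0, and the part of these cells in the subunit differences was not tested.

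In the remaining treatments no member passed the threshold. M36418_s_at differed between aged and young rats by 0.92 ± 0.67 in hidden platform rats, 2.16 ± 0.90 in visible platform rats and 1.30 ± 0.79 in yoked rats on the log2 scale. By limma, 0% of all tested probe sets passed within hidden platform and yoked rats and 0.0381% within visible platform rats. At an unadjusted p under 0.05 there were 1, 2 and 1 of 7 members in hidden, visible and yoked rats, where 2.02%, 6.88% and 7.8% of all probe sets lay. A test of whether the age difference depended on treatment (moderated F, 0.305% of all probe sets past the threshold) had its smallest member p at M36418_s_at, with an unadjusted p of 0.00589 and an adjusted p of 0.142. When the 8 cage arrays were left out, an alternative added after seeing the data, the overall age difference of M36418_s_at was 1.34 ± 0.44 (adjusted p = 0.147) and none of the 7 members passed, where 34 of 5244 probe sets (0.648%) did. All 5 members that had passed kept their sign, with log2 differences of 0.78 to 1.34.

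**Figure D2:**
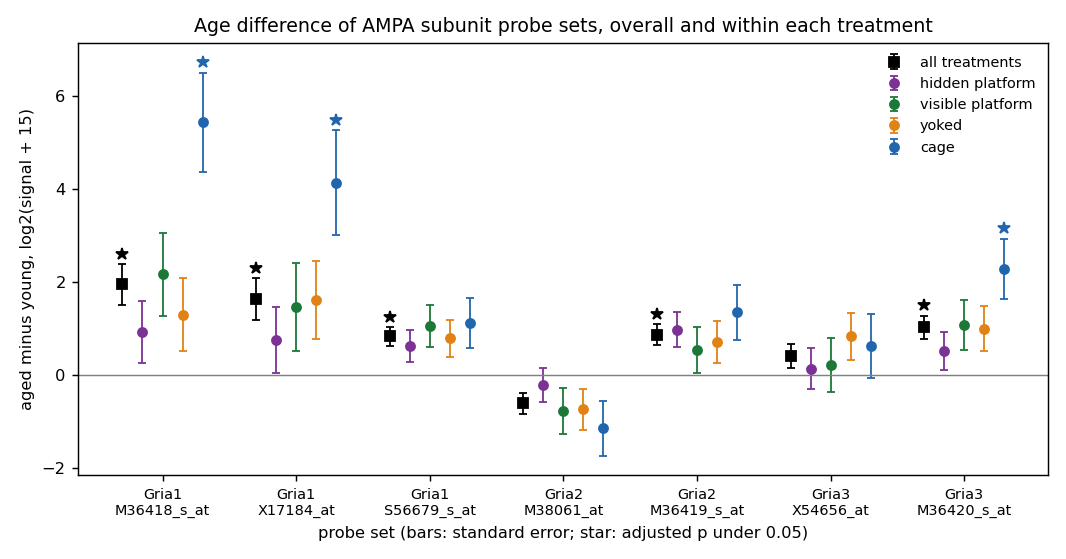
Aged minus young difference on the log2(signal + 15) scale for the 7 tested AMPA subunit probe sets, over all treatments (black squares) and within each treatment (coloured circles), with standard errors as bars and stars at adjusted p under 0.05. The cage difference of 5.42 for M36418_s_at is the highest point, and the Gria2 probe sets lie on opposite sides of 0.

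The Gria1 signal moved with the 3′/5′ ratio by some probe sets and not by others. In a fit of signal on the ratio within groups over all 79 arrays, added after seeing the data, the slope of M36418_s_at was 1.04 ± 0.11 log2 units per unit of log2 ratio (adjusted p = 2.8e-13) and that of X17184_at was 0.83 ± 0.14 (adjusted p = 1.2e-06). The slope of S56679_s_at was -0.02 ± 0.08 (adjusted p = 0.837). In this fit 58.9% of all tested probe sets passed the threshold. Without the 14 arrays of low correlation, 8.62% of probe sets passed, with slopes of 0.74 ± 0.19 for M36418_s_at (adjusted p = 0.0107), 1.22 ± 0.26 for X17184_at (adjusted p = 0.0014) and 0.12 ± 0.17 for S56679_s_at (adjusted p = 0.677). With the ratio as a covariate in the age fit over all treatments, M36418_s_at differed by 1.65 ± 0.27 (adjusted p = 8.6e-05). In that fit X17184_at differed by 1.40 ± 0.36 (adjusted p = 0.00908) and S56679_s_at by 0.82 ± 0.20 (adjusted p = 0.00708). The part of RNA quality in these differences was not tested.

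**Figure D3:**
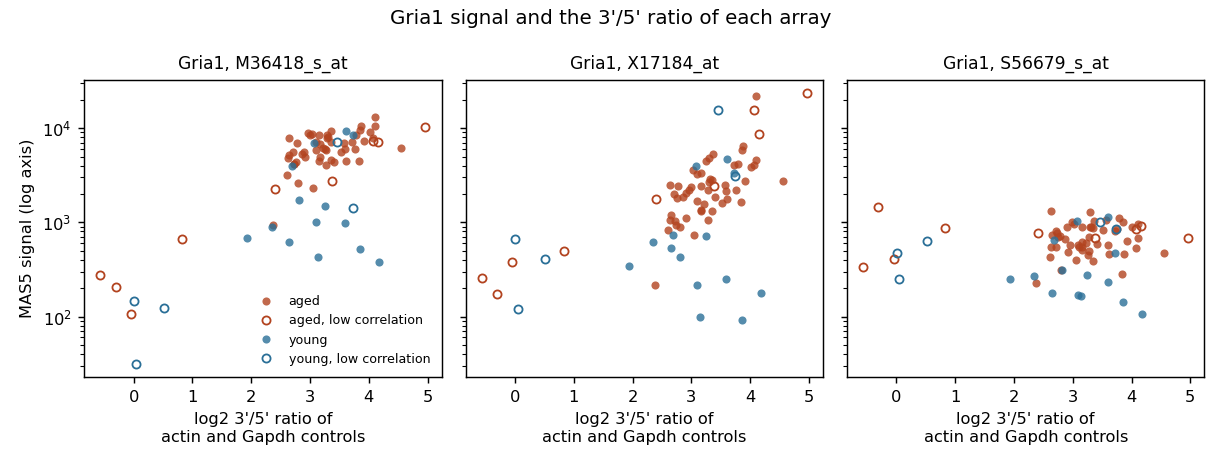
MAS5 signal (log axis) of each Gria1 probe set against the log2 3′/5′ ratio of the actin and Gapdh controls, 1 point per array, with open circles for the 14 arrays of low correlation. M36418_s_at and X17184_at are low on the arrays of low ratio (slopes 1.04 and 0.83), whereas S56679_s_at has a slope of -0.02. The aged arrays of S56679_s_at lie mostly above its young arrays.

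The 3 Gria1 probe sets were correlated over the 79 arrays, but not alike within every set of arrays. M36418_s_at and X17184_at had a Spearman correlation of 0.90 and a Pearson correlation of 0.82 over the 79 arrays, and S56679_s_at correlated with them at Spearman 0.62 and 0.66. Each had a permutation p of 1e-05, the smallest that 100000 resamples can give (adjusted p = 4.6e-05 over 1326 same-gene pairs, 57.2% of which passed). Within the 16 B arrays the Spearman correlation was 0.86 for M36418_s_at and X17184_at, 0.33 for M36418_s_at and S56679_s_at, and 0.06 for X17184_at and S56679_s_at. The median Spearman correlation over all same-gene pairs was 0.27, and the points of every such pair share the quality of their arrays. The age difference of M36418_s_at exceeded that of S56679_s_at by 1.12 ± 0.41 on the log2 scale (adjusted p = 0.0864 over the 1326 pairs, 5.51% of which passed), and that of X17184_at by 0.32 ± 0.28 (adjusted p = 0.487). X17184_at minus S56679_s_at gave 0.80 ± 0.36 (adjusted p = 0.173).

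Gria2 gave opposite readings by its 2 probe sets. M36419_s_at rose with age: its lowest, median and highest signals were 33.7, 451.25 and 1010.2 in aged rats without B, against 31.1, 238.5 and 710.7 in young rats, and 39 of 44 aged arrays exceeded the young mean of their treatment. Its log2 difference was 0.86 ± 0.23 (adjusted p = 0.0152), 1.82-fold higher in aged rats. It did not pass under quantile normalization (adjusted p = 0.0791) or median centring (adjusted p = 0.107). M38061_at had a lowest, median and highest signal of 145.8, 1209.05 and 2887.2 in aged rats, against 556.9, 1669 and 4676.7 in young rats, and 33 of 44 aged arrays lay below the young mean of their treatment. Its log2 difference was -0.61 ± 0.22 (adjusted p = 0.0889), which did not pass the threshold. It passed when young yoked rat 59 (-0.69, adjusted p = 0.0405) or young cage rat 76 (-0.70, adjusted p = 0.0468) was left out. It also passed in 1 fit over all 79 arrays, at -0.73 ± 0.22 (adjusted p = 0.0136). It was -0.32 with array weights (adjusted p = 0.115), -0.42 with the animal number block (adjusted p = 0.308) and -0.41 without arrays of high disagreement (adjusted p = 0.126).

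In cage rats M38061_at read 1045.4, 1206, 1467.2, 685.3 and 844.7 in aged animals, against 3892.6, 4676.7 and 636.6 in young animals. A pair of young arrays lay above all aged arrays and the remaining one below them, and the log2 difference was -1.15 ± 0.59 (adjusted p = 0.164). Without that lowest young array it was -2.06 ± 0.64 (adjusted p = 0.0248), and without young cage rat 70 it was -0.76 ± 0.67 (adjusted p = 0.456). M36419_s_at read 680.3, 576.9, 209.1, 98.1 and 259.9 in aged cage rats, against 31.1, 194.3 and 175.6 in young cage rats, with overlapping ranges and a log2 difference of 1.34 ± 0.60 (adjusted p = 0.107). In hidden, visible and yoked rats M38061_at differed by -0.22 ± 0.37, -0.77 ± 0.49 and -0.74 ± 0.43, and M36419_s_at by 0.97 ± 0.38, 0.54 ± 0.50 and 0.71 ± 0.44, none of which passed.

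**Figure D4:**
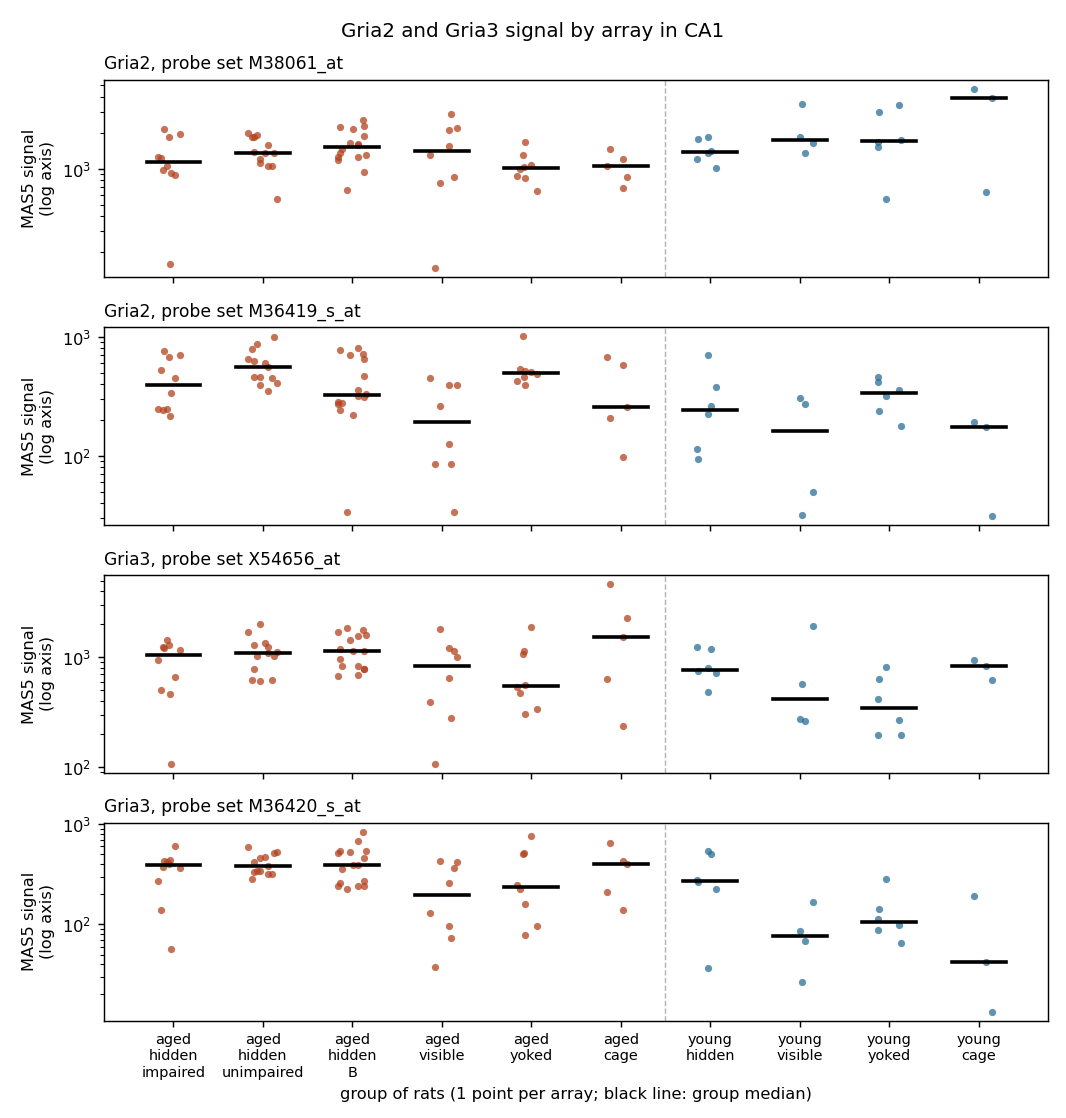
MAS5 signal (log axis) of the Gria2 and Gria3 probe sets in every array, with aged groups left and young groups right of the dashed line and the group median as a black line. M38061_at of Gria2 has its highest group median in young cage rats (3892.6), whereas M36419_s_at of the same gene has its highest in aged unimpaired rats (555.1).

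The difference between the Gria2 probe sets itself changed with age. M38061_at minus M36419_s_at, in log2 units within an array, averaged 1.52 ± 0.97 in aged rats without B (SD, n = 44) and 3.03 ± 1.60 in young rats (SD, n = 19). Its aged minus young difference was -1.48 ± 0.29 (SE, limma, adjusted p = 0.00086). Of the 5 member pairs it was the one that passed, where 5.51% of all 1326 same-gene pairs did. A scale factor common to an array cancels in it, apart from the pseudocount of 15. It ranged from -1.56 to -1.04 under 14 alternatives and from -1.60 to -1.31 when each of the 63 arrays was left out in turn, and it passed the threshold in all of them. Without the cage arrays it was -1.30 ± 0.29 (adjusted p = 0.0121), where 8 of 1326 pairs passed, all 8 lower in aged rats. Of the 73 pairs that passed with the cage arrays in, 64 were lower and 9 higher in aged rats. The median over all pairs was -0.16, so the direction of the Gria2 pair was that of most pairs that passed.

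By group, the Gria2 probe set difference averaged 1.37 ± 0.75 in aged impaired and 1.23 ± 0.47 in aged unimpaired rats, against 2.48 ± 1.17 in young hidden platform rats (SD). It averaged 2.61 ± 1.44 in aged visible platform rats, against 3.92 ± 1.88 in young ones. It averaged 0.95 ± 0.42 in aged yoked rats, against 2.40 ± 1.09 in young yoked rats, and 1.73 ± 0.94 in aged cage rats, against 4.22 ± 2.33 in young cage rats. The aged mean was below the young mean in all 4 treatments, and the B rats averaged 2.04 ± 0.75. Their individual values overlapped between ages in each treatment.

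**Figure D5:**
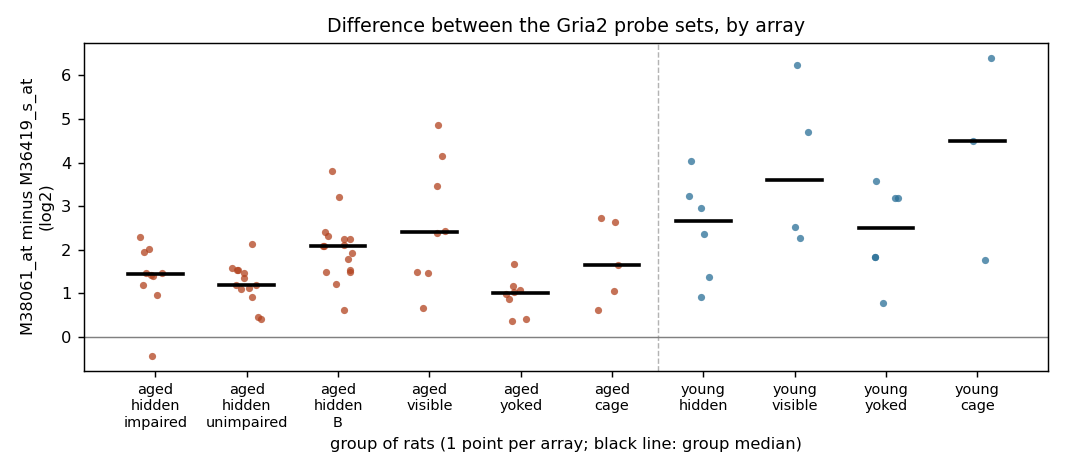
Difference between the Gria2 probe sets (M38061_at minus M36419_s_at, log2 units within an array) for every array by group, with the group median as a black line. Aged groups have means of 0.95 to 2.61 and young groups of 2.40 to 4.22.

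Over arrays, the Gria2 probe sets hardly followed each other, with a Spearman correlation of 0.13 and a Pearson correlation of 0.08 (Spearman permutation p = 0.259, adjusted p = 0.338, n = 79). The Spearman correlation was 0.42 in aged rats without B and -0.36 in young rats, a difference that was not tested. Neither moved with the 3′/5′ ratio over all arrays, with slopes of 0.06 ± 0.09 for M38061_at (adjusted p = 0.547) and 0.02 ± 0.10 for M36419_s_at (adjusted p = 0.891). Without the arrays of low correlation both slopes were negative and passed the threshold, at -0.46 ± 0.13 (adjusted p = 0.0173) and -0.81 ± 0.16 (adjusted p = 0.001). With the ratio as a covariate the age difference between the pair was -1.45 ± 0.29 (adjusted p = 0.00113).

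Gria3 rose with age by M36420_s_at. Its lowest, median and highest signals were 37.5, 368.4 and 764.6 in aged rats without B, against 13.5, 112.9 and 537.2 in young rats, and 38 of 44 aged arrays exceeded the young mean of their treatment. Its log2 difference was 1.02 ± 0.25 (adjusted p = 0.00855), 2.03-fold higher in aged rats. It did not pass under quantile normalization (adjusted p = 0.0682), median centring (adjusted p = 0.0622) or the animal number block (0.76 ± 0.24, adjusted p = 0.0539). The other probe set of Gria3, X54656_at, had a lowest, median and highest signal of 107, 1019.55 and 4651 in aged rats, against 194.1, 640.6 and 1933.4 in young rats, with a log2 difference of 0.41 ± 0.26 (adjusted p = 0.381). Without the 14 arrays of low correlation X54656_at passed too, at 0.78 ± 0.25 (adjusted p = 0.0281).

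In cage rats M36420_s_at read 211.6, 137.7, 651.2, 427.9 and 402.7 in aged animals, against 13.5, 190.2 and 41.8 in young animals, so that the ranges overlapped at 1 young array. The log2 difference was 2.28 ± 0.65 (adjusted p = 0.0106), and 1.25 ± 0.63 (adjusted p = 0.305) with the 3′/5′ ratio as a covariate. It was 0.61 ± 0.82 (adjusted p = 0.748) without arrays of low correlation, 0.46 ± 0.82 (adjusted p = 0.805) without arrays of high disagreement, and 1.64 ± 0.73 (adjusted p = 0.138) without young cage rat 70. The Gria3 probe sets had a Spearman correlation of 0.67 and a Pearson correlation of 0.70 over the 79 arrays (permutation p = 1e-05, adjusted p = 4.6e-05). Both moved with the 3′/5′ ratio within groups, by 0.33 ± 0.09 for M36420_s_at (adjusted p = 0.00157) and 0.39 ± 0.09 for X54656_at (adjusted p = 0.000273). X54656_at minus M36420_s_at had an age difference of -0.61 ± 0.21 (adjusted p = 0.0592).

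Gria4 was dim in every group by its median signal. M36421_s_at had group medians of 39.85 to 73.3 in aged groups and 40.6 to 66.9 in young groups, S94371_at of 39 to 62.2 and 21.75 to 60.35, and S94371_g_at of 9.7 to 45 and 17.7 to 55.5. Single arrays were brighter. In aged impaired rats the highest signals of these probe sets, in that order, were 985.5, 792.1 and 500.2, with group means of 182.34, 140.46 and 110.18. In a fit without the filter, M36421_s_at differed with age by 0.13 ± 0.26, S94371_at by -0.06 ± 0.26 and S94371_g_at by -0.19 ± 0.28 on the log2 scale (adjusted p = 0.951, 0.982 and 0.925). None passed the threshold, and whether the dim signal hid a difference was not tested. The S94371 pair, although drawn from the same record, had a Spearman correlation of 0.14 over arrays, and M36421_s_at correlated with S94371_g_at at 0.34.

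Learning after hidden platform training was compared between impaired and unimpaired aged rats. No member passed the threshold of the limma fit, and 0% of all tested probe sets did. At an unadjusted p under 0.05 there were none of the 7 members, against 12.9% of all probe sets. M36418_s_at had a lowest, median and highest signal of 204.9, 6974.5 and 7896.9 in impaired rats, against 2234.9, 7212.9 and 10457.9 in unimpaired rats, with a log2 difference of -0.56 ± 0.58. M36419_s_at of Gria2 had the smallest adjusted p, at 0.451, with a log2 difference of -0.48 ± 0.31. In this comparison 6 of the 7 log2 differences were negative and they ran from -0.56 to 0.06. With the 3′/5′ ratio as a covariate M36418_s_at was at 0.11 and X17184_at at 0.15, and with array weights M38061_at was at 0.06. Of the CA1 and pyramidal neuron markers 5 of 6 were lower in impaired rats (median log2 difference -0.43), and of the interneuron markers 7 of 8 (median -0.43), against 1610 of 3233 genes, none of them past the threshold. The part of these cells was not tested.

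The 16 B rats were set against both other aged hidden platform groups. M36418_s_at averaged 12.42 ± 0.30 on the log2 scale in B rats, against 12.08 ± 1.59 in impaired and 12.64 ± 0.60 in unimpaired rats (SD). No member passed the threshold for B minus unimpaired, where 0.0572% of all probe sets did, or for B minus impaired, where 12% did. At an unadjusted p under 0.05 there was 1 of 7 members for B minus unimpaired, against 7.17% of all probe sets, and none of 7 for B minus impaired, against 32.1%. The 1 member was M36419_s_at of Gria2, with a log2 difference of -0.64 ± 0.30 (adjusted p = 0.615). None of the 16 B arrays was among the arrays of low correlation, whereas 2 of 10 impaired and 1 of 13 unimpaired arrays were.

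Training was compared with each control within an age. In aged rats M36419_s_at of Gria2 stood out between hidden and visible platform rats, with a lowest, median and highest signal of 217, 394.95 and 764.5 in impaired and 348.7, 555.1 and 993 in unimpaired rats, against 33.7, 194.05 and 451.2 in visible platform rats. The log2 difference was 1.38 ± 0.30, with an adjusted p of 0.0858. It was 0.42 ± 0.29 (adjusted p = 0.635) without the arrays of low correlation, which hold 4 of the 8 aged visible arrays. No member passed for aged hidden minus visible (0.0191% of all probe sets passed). At an unadjusted p under 0.05 there were 2 of 7 members and 11.4% of all probe sets. For aged hidden minus yoked and minus cage no member and 0% of all probe sets passed, and at an unadjusted p under 0.05 there was no member, against 2.96% and 8.56% of all probe sets.

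In young rats, M36418_s_at of Gria1 rose in hidden platform rats relative to cage rats. It had a lowest, median and highest signal of 1020.4, 2700.2 and 8535.1 in the 6 young hidden platform rats, against signals of 31.5, 622.1 and 121.7 in the 3 young cage rats. The log2 difference was 4.16 ± 1.01 (limma, adjusted p = 0.0262), and 1 of 7 members passed where 5.28% of all probe sets did. With the 3′/5′ ratio as a covariate it was 2.44 ± 1.10 (adjusted p = 0.999), without the arrays of low correlation 2.35 ± 1.23 (adjusted p = 0.418), and without the young cage array of ratio 0.05 it was 3.27 ± 1.14 (adjusted p = 0.17). Against young visible platform rats and young yoked rats no member passed, nor did any other probe set (0%). At an unadjusted p under 0.05 there were 2 of 7 members against visible platform rats, where 5.23% of all probe sets lay, and 1 of 7 against yoked rats, where 1.77% did. The aged and young comparisons with cage rats each rest on their own small cage group.

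The order of the 10 groups by mean log2 level differed between probe sets. M36418_s_at averaged 12.74 ± 0.97 in aged cage, 11.61 ± 1.83 in aged visible and 11.62 ± 2.24 in aged yoked rats, and 11.47 ± 1.30 in young hidden, 9.45 ± 2.36 in young visible, 10.33 ± 1.55 in young yoked and 7.32 ± 1.90 in young cage rats (SD). All 6 aged groups stood above all 4 young groups, as they also did for S56679_s_at, with aged means of 9.15 to 9.61 and young means of 8.29 to 8.96, and for X17184_at, with aged means of 10.55 to 12.43 and young means of 8.30 to 10.37. M36419_s_at of Gria2 ran from 7.55 in aged visible to 9.17 in aged unimpaired rats, and from 6.94 in young cage to 8.36 in young yoked rats. M38061_at ran from 10.01 in aged cage to 10.56 in B rats, and from 10.47 in young hidden to 11.16 in young cage rats. M36420_s_at of Gria3 ran from 7.55 in aged visible to 8.69 in aged unimpaired rats, and from 6.11 in young cage to 8.01 in young hidden rats. For none of the 10 probe sets did any neighbours in this order differ by more than their pooled standard deviation.

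The genes most like each subunit over the 79 arrays, by Spearman correlation with its brightest probe set, were named by rule. For Gria1 they were Map2, a dendritic microtubule protein, at 0.88, Spock2, an extracellular matrix proteoglycan, at 0.85, and Camk2b, a subunit of calcium/calmodulin-dependent kinase II, at 0.84. For Gria2, by M38061_at alone, they were the small GTPase gene Rab28 at 0.83, the transmembrane protein gene Tmeff1 at 0.79 and the fatty acid activating enzyme gene Acsl4 at 0.79. The other Gria2 probe set, M36419_s_at, correlated with M38061_at at 0.13. For Gria3 they were Map2 at 0.81, the Golgi protein gene Glg1 at 0.76 and the neuronal adhesion gene Lsamp at 0.75. For Gria4, whose values are dim, they were the protocadherin gene Pcdhga11 at 0.45, the myosin-binding protein gene Mybph at 0.44 and the muscarinic receptor gene Chrm3 at 0.44. Without the arrays of low correlation (65 arrays) the values, in the same order, were 0.84, 0.79 and 0.78 for Gria1 and 0.78, 0.74 and 0.81 for Gria2. They were 0.77, 0.78 and 0.77 for Gria3 and 0.51, 0.33 and 0.35 for Gria4. Arrays share depth of signal and RNA quality, so these are descriptions.

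Other genes of AMPA receptor function were counted in the age comparison with 1 probe set per gene, where 77 of 3233 genes rose and 74 fell. Of the auxiliary subunits and synaptic organisers, 4 of 23 genes were tested and none passed, with a median log2 difference of -0.29. At an unadjusted p under 0.05 there was 1 of these 4 genes, and 1093 of all 5244 tested probe sets. The neuronal pentraxin Nptx2, which clusters AMPA receptors, had -0.34 ± 0.14 (adjusted p = 0.131), Nptx1 had -0.32 ± 0.18, and Cnih2, a cornichon that binds the receptor, had -0.26 ± 0.18. Among scaffold and trafficking genes 15 of 30 were tested, 1 rose and 1 fell, with a median of 0.12. Napa, an adaptor of the NSF fusion machinery, rose by 0.71 ± 0.23 (adjusted p = 0.0483), and Rab11a, a GTPase of recycling endosomes, fell by 0.70 (SE 0.17, adjusted p = 0.00638). The anchoring protein gene Akap5 had 0.71 ± 0.25 (adjusted p = 0.0761).

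Of the kinases, phosphatases and editing enzymes that act on AMPA subunits, 14 of 21 were tested and 1 rose, with a median of 0.16. Camk2g, a subunit of calcium/calmodulin-dependent kinase II, rose by 0.87 ± 0.18 (adjusted p = 0.00163), while Camk2b had 0.85 ± 0.30 (adjusted p = 0.0736) and the phosphatase gene Ppp1cc had -0.45 ± 0.20 (adjusted p = 0.173). Of the kainate and delta receptor genes 4 of 7 were tested and none passed, with a median of -0.05. The kainate subunit gene Grik5 came nearest, at 0.49 ± 0.16 (adjusted p = 0.0508), with Grik4 at -0.21 ± 0.25 and Grik2 at -0.11 ± 0.21.

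Markers of cell types were read beside the subunits in the same age comparison, where 77 of 3233 genes rose and 74 fell. Of the CA1 and pyramidal neuron markers none of 6 tested passed the age test, with Ncdn at 0.77 ± 0.28 and Pou3f1 at -0.54 ± 0.21 nearest. None of 6 oligodendrocyte, 3 endothelial and 3 dentate or CA3 markers passed. The myelin gene Mbp came nearest among the oligodendrocyte markers, at 1.44 ± 0.46 (adjusted p = 0.0502). By sign, 3 of the 6 oligodendrocyte markers were higher and 3 lower in aged rats, with a median log2 difference of 0.02. Of the astrocyte markers 2 of 6 rose, Aqp4 by 0.96 ± 0.23 (adjusted p = 0.00665) and Slc4a4 by 0.92 ± 0.21 (adjusted p = 0.00441), and of the microglia markers 1 of 4 rose, C1qb by 1.25 ± 0.23 (adjusted p = 0.000632). Of the interneuron markers 1 of 8 fell, Sst by 0.67 (SE 0.21, adjusted p = 0.0414). Gad2 had 0.57 ± 0.20 (adjusted p = 0.0667) and Gad1 had -0.45 ± 0.18 (adjusted p = 0.116). By sign, 3 of the 8 were higher and 5 lower in aged rats. The summed astrocyte markers ranged from 3990.6 to 21798.2 in aged rats and from 2484 to 18367.8 in young rats, and the microglia sum from 594.4 to 2202.4 in aged rats and from 448.3 to 1549.1 in young rats, with no marker at 0. Their part in the subunit differences was not tested.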

How the data were processed

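Arrays of CA1 RNA from 79 rats were analysed from the deposited intensity values, linear signals that the authors computed for each probe set in MAS5, as the submitters' processing notes state. Per the labels' protocols, RNA went through 2 rounds of amplification before biotin labelling, which can favour the 3′ end of transcripts. The mean signal without the 2% highest and lowest values lay between 500.09 and 500.98 on every array, so the arrays had been scaled, and 46 values were 0. The median signal of an array ran from 98.9 to 347.1, and the number of arrays limits the precision. The sources used here give no genome build, probe sequence or scan date.

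Of 8799 probe sets, 59 were controls. Platform symbols were updated through the gene identifier for 6994 of the 7018 with 1 symbol, 24 kept theirs, and 308 probe sets with several symbols went unnamed. Signals were tested as log2(signal + 15), 15 being the 10th percentile of all values, rounded, and a fold on this scale understates the change of dim probe sets. The 5244 probe sets left by the filter went into limma 3.58.1 under R 4.3.3, with trended eBayes, two-sided tests and Benjamini-Hochberg adjustment. The age comparison used 63 arrays without B, aged comparisons 44, B comparisons 60 and young comparisons 19. Same-gene pairs (1326) were fitted as log2 differences within arrays, the brighter probe set first. Correlations had 100000 permutations (scipy 1.17.1). The highest Spearman correlation of any pair of arrays was 0.976, so none was counted as a duplicate. Fits were tested on simulated data.

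The rule for named genes took every Gria probe set, list members past the threshold or with the 3 smallest unadjusted p, and the 3 genes most like each subunit. Members, lists, tests and alternatives were chosen with earlier results of these data known. Alternatives were pseudocounts of 1 and 60, a 60% filter or none, median centring, quantile normalization, robust eBayes with no trend, array weights, the 3′/5′ ratio as covariate, a block for the range of the animal number, a single fit of all groups, leaving out the 14 arrays of low correlation or the 14 on which same-gene probe sets disagreed by over 0.75, and leaving out each array. Added after seeing the data were the slope on the 3′/5′ ratio, the fit without cage arrays and the fit with B arrays as aged hidden platform rats.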

Additional observations from a re-analysis of the deposited data

Results flagged for a closer look

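In 70 combinations of a probe set and a group of 4 to 10 arrays, 10 values from 8 rats stood apart from their group by Dixon's criterion at 95%, which by chance flags about 1 in 20. Impaired rat 83 was the lowest of its group by 3 probe sets: M36418_s_at at 204.9 against 2743.3 to 7896.9 in the other impaired rats, X17184_at at 172.5 against 1071 to 4110.7, and M38061_at at 157.7 against 885.4 to 2155. That array had the lowest median correlation with the others, 0.223, and a log2 3′/5′ ratio of -0.31.

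Impaired rat 8 was lowest for X54656_at of Gria3 at 107, against 466.6 to 1431.9 in the rest of its group, with a median correlation of 0.444. Aged visible rat 67 was lowest for M38061_at of Gria2 at 145.8, against 756 to 2887.2, with a median correlation of 0.646. Aged visible rat 97 was highest for M36421_s_at of Gria4 at 238.9, against 13.5 to 58.2, and young hidden rat 39 was highest for the same probe set at 396.8, against 28.5 to 79.7, with median correlations of 0.738 and 0.660.

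The remaining arrays had median correlations of 0.919 to 0.930. Aged yoked rat 93 was highest for M36419_s_at of Gria2 at 1010, against 394.9 to 538.2 in the other aged yoked rats. Young yoked rat 59 was highest for S56679_s_at of Gria1 at 1150, against 164.9 to 315, and young hidden rat 3 was lowest for M36420_s_at of Gria3 at 37, against 226.2 to 537.2. The cause was not tested for any of these values.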

How the results depend on the processing

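Of the 7 members, 5 rose with age, and so did 2 under quantile normalization, median centring or animal number as a block, 0 without the cage arrays, and 5 or 6 under the others. In 1 fit over all arrays 5 rose and 1, M38061_at of Gria2, fell. Over all probe sets 269 passed, against 97 under quantile normalization, 67 under median centring, 1134 with array weights, 727 and 639 without arrays of low correlation or high disagreement, 1012 in 1 fit over all arrays, 34 without cage arrays and 450 with B arrays. The 1 member pair that passed became 2 with a pseudocount of 1, the 60% filter or the 3′/5′ covariate, and 3 with array weights, B arrays, or without arrays of low correlation or high disagreement. Within cage rats the 3 calls became 6 with array weights, 0 with the covariate, 2 with the block, and 2 without arrays of low correlation or high disagreement, where M36418_s_at rose and M38061_at fell. Counts of 0 became 2 (array weights) or 1 (without low correlation or high disagreement) within yoked rats, 5 (array weights) or 1 (covariate, or without high disagreement) within visible rats, 2 (array weights) within hidden rats, and 4 (array weights) or 1 (1 fit) for the interaction. Aged hidden minus visible gave 1 with the 60% filter or the covariate, young hidden minus visible 1 with array weights. Young hidden minus cage, 1 call, gave 0 with median centring, covariate, block, or without low correlation or high disagreement, 4 with array weights and 2 in 1 fit. Leaving out 1 array gave 1 to 3 pairs (3 without aged yoked rat 63), 1 to 4 members within cage rats (1 without young cage rat 70), 0 to 1 for aged hidden minus visible, and 0 to 2 for young hidden minus cage (0 without young cage rat 70 or 76 or young hidden rat 37 or 40). For the other comparisons, and for leaving out 1 array, the share of all probe sets is not given beside these counts. They are not read as results about the members. No called value changed sign. No paired analysis was possible because the groups share no replicate numbers. The dim signals of the 3 Gria4 probe sets limit what could be seen of that gene.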
